A study of Mus musculus with 6 samples.

Results

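Cidec, Plin2, Fitm2 and Hilpda, 4 genes of lipid droplet growth and coating, were followed in mouse liver with and without Usp28. They were taken by gene symbol and make up 4 of the 389 genes of the deposited table. RNA was sequenced from 3 liver samples labelled Usp28 knockout (KO), from a whole-body deletion, and 3 labelled Usp28 wildtype (WT). Usp28 codes for a protease that strips ubiquitin chains off its substrates. Both genotypes, WT included, were fed a methionine-choline deficient diet from the age of 8 weeks, over a period of 4 weeks. This diet impairs the export of triglyceride from hepatocytes and produces steatohepatitis. Livers on a normal diet were not analysed here, so each difference below is one between genotypes on that diet. The labels name neither the strain nor the sex, nor whether the replicates of a genotype are separate animals, so p-values measure only the spread between these samples, which may be technical. The tissue label could not be set against liver markers, because none of 17 hepatocyte markers had a row. The study's title places PPARγ, a nuclear receptor that induces several droplet genes, downstream of USP28.

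Hepatocytes store triglyceride in lipid droplets, which bud from the endoplasmic reticulum and are covered by a single layer of phospholipid and by coat proteins. FITM2, a protein of the endoplasmic reticulum, is needed for the budding of droplets. PLIN2 (perilipin 2) is the main coat protein of droplets in hepatocytes and shields the stored fat from lipases. CIDEC, also called FSP27, sits where droplets touch and passes fat from the smaller to the larger droplet. HILPDA is a small droplet protein, induced by hypoxia and by fatty acids, that inhibits the triglyceride lipase ATGL. Cidec is a target of PPARγ in fatty liver, and Plin2 and Hilpda respond to PPAR receptors.

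The promoters are shown because all 4 genes were lower in KO, where 59.9% of the table's genes were called lower. RefSeq's table (GRCm38.p6) matched all 4 genes with 6 windows, which run from 250 bases before to 50 bases after a start site. Exact matches were sought on both strands for the exact consensus of DR1 (AGGTCA repeated after a spacer base, to which PPAR receptors bind with RXR), for AGGTCA (a single copy, contained in the former), for ACGTG (the core of the hypoxia response element) and for CACGTG (an E-box, which contains ACGTG). Of all 32851 windows in that table, 0.0396% held DR1, 16.3% AGGTCA, 19.6% ACGTG and 7.15% CACGTG. Below, Cidec is shown as the gene with the largest difference and Plin2 as the most abundant, each up to base 10 of the transcript, with matches in capitals. For Hilpda only the match and 10 bases on either side are shown.
Cidec, minus strand, chr6:113435751-113436010: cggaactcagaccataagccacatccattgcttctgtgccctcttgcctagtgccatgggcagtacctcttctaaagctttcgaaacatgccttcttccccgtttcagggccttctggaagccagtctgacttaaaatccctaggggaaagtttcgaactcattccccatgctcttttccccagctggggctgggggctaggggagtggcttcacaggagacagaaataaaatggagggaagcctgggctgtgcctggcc
Plin2, minus strand, chr4:86670050-86670309: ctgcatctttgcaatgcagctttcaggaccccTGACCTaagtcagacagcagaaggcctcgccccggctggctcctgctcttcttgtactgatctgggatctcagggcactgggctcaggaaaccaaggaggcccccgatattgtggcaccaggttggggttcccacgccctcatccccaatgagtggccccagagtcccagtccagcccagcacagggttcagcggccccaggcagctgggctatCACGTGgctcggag
Hilpda, plus strand, chr6:29272573-29272597: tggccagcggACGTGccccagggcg
In the Plin2 window, AGGTCA lies on the opposite strand, with its match beginning 218 bases before the start site, and CACGTG begins 4 bases before that site. The Hilpda match, ACGTG, begins 43 bases before the second of 2 start sites. Neither Cidec window and not the Fitm2 window held any of these motifs. None of the 6 windows held DR1. These are matches of letters only, and elements outside the windows were not searched.

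Levels are given in FPKM (fragments divided by transcript length and by depth), a scale on which genes can be compared with each other. In WT liver the order was the same in each of the 3 libraries: Plin2 stood highest, then Cidec, Fitm2 and Hilpda, and no neighbours in that order overlapped. In KO liver Plin2 still stood highest and Fitm2 came next. Cidec had dropped below Fitm2 to the range of Hilpda, and those 2 genes overlapped. Among the 389 genes, ordered by mean FPKM, Cidec held rank 38 in WT and rank 207 in KO. Plin2 held ranks 8 and 11, Fitm2 103 and 124, and Hilpda 166 and 210.

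**Figure D1:**
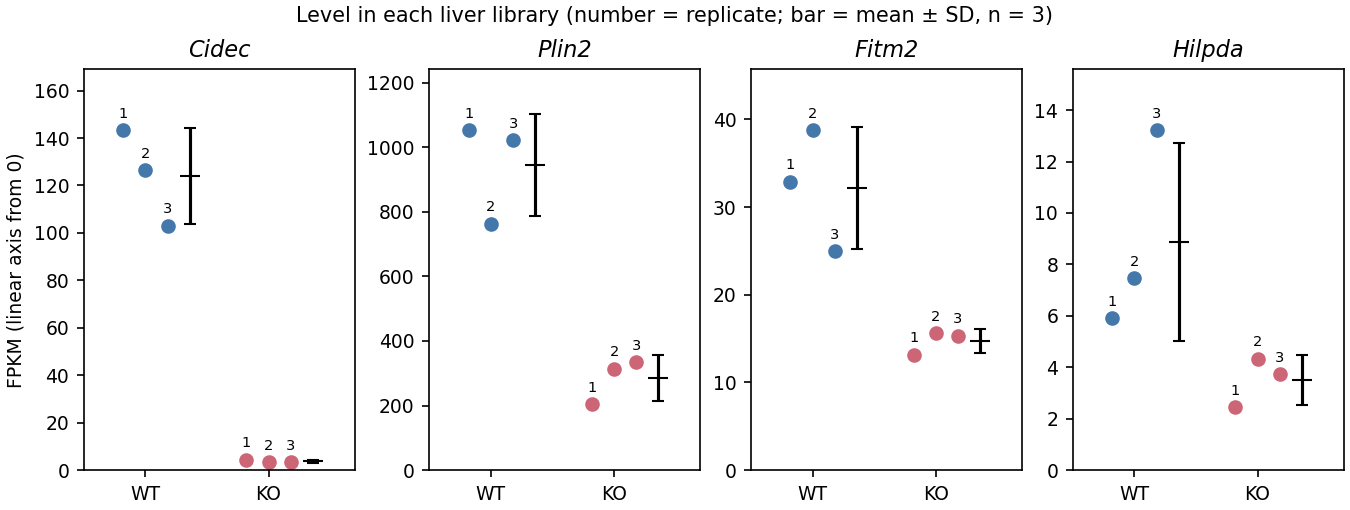
FPKM of Cidec, Plin2, Fitm2 and Hilpda in each liver library (linear axes from 0, points numbered by replicate, bars mean ± SD of n = 3 per genotype). For each gene the 3 KO values lie below the 3 WT values, with the widest gap for Cidec (lowest WT 103, highest KO 4.40 FPKM) and the narrowest for Hilpda (lowest WT 5.90, highest KO 4.33 FPKM).

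Cidec (ENSMUSG00000030278, chromosome 6, 113424634 to 113435760, minus strand, GRCm38), the droplet fusion gene, stood at 143, 126 and 103 FPKM in WT replicates 1, 2 and 3. In KO replicates 1, 2 and 3 it stood at 4.40, 3.31 and 3.28 FPKM. Every KO library was far under every WT library, and the lowest WT value was 23.4 times the highest KO value. The mean was 124 ± 20.2 FPKM for WT and 3.66 ± 0.638 FPKM for KO (SD, n = 3 each). In edgeR's quasi-likelihood test the log2 fold change was -5.04 with an SE of 0.34 (adjusted p = 1.15e-05). The transcript was not lost in KO: 99, 88 and 83 reads fell on it, each with a counting error of about 10% (10.1%, 10.7% and 11.0%). In the WT libraries 3165, 3447 and 2315 reads did.

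Plin2 (ENSMUSG00000028494, chromosome 4, 86648386 to 86670060, minus strand), the coat gene, stood at 1052, 764 and 1021 FPKM in WT replicates 1, 2 and 3. The KO replicates 1, 2 and 3 stood at 204, 315 and 335 FPKM. The groups did not overlap, and KO replicate 1 was lowest. With 33939 to 39648 reads in WT libraries and 7970 to 13639 in KO libraries, counting error was at most 1.12% of any value, far below the spread between replicates. The mean was 945 ± 158 FPKM for WT against 284 ± 70.6 FPKM for KO (SD, n = 3 each), and edgeR put the log2 fold change at -1.71 with an SE of 0.36 (adjusted p = 0.00462). Even so, Plin2 remained the 11th of the 389 genes by level in KO.

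Fitm2 (ENSMUSG00000048486, chromosome 2, 163466379 to 163472629, minus strand), the droplet budding gene, stood at 32.9, 38.8 and 24.9 FPKM in WT replicates 1, 2 and 3. KO replicates 1, 2 and 3 were at 13.2, 15.6 and 15.3 FPKM, close together and under every WT library. The mean was 32.2 ± 6.93 FPKM for WT and 14.7 ± 1.34 FPKM for KO (SD, n = 3 each), and edgeR put the log2 fold change at -1.13 with an SE of 0.30 (adjusted p = 0.00899). An antisense gene, 2310001K24Rik on the plus strand, overlaps Fitm2 over 673 bases. Whether the authors counted by strand is not given in the sources used here, so reads of the 2 genes in that stretch may not have been separated.

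Hilpda (ENSMUSG00000043421, chromosome 6, 29272488 to 29275446, plus strand), the lipase inhibitor gene, stood at 5.90, 7.46 and 13.2 FPKM in WT replicates 1, 2 and 3. The KO replicates 1, 2 and 3 stood at 2.44, 4.33 and 3.73 FPKM. The groups did not overlap, but the lowest WT value was only 1.36 times the highest KO value. It is the most thinly covered of the 4 genes in WT, with 118 to 264 reads there and 50 to 94 in KO, where counting error reached 14.1%. The mean was 8.86 ± 3.85 FPKM for WT and 3.50 ± 0.966 FPKM for KO (SD, n = 3 each), and edgeR put the log2 fold change at -1.34 with an SE of 0.40 (adjusted p = 0.0125). Without KO replicate 1, its lowest library, the edgeR adjusted p of Hilpda was 0.0536, with a log2 fold change of -1.13.

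All 4 genes passed the threshold of 0.05 and were lower in KO, where 59.9% of the table's genes were called lower and 99.7% were called in either direction. The authors had selected the 389 genes on this same contrast, with absolute log2 fold changes of at least 1.004 and an FDR of at most 0.0494 in the authors' deposited table. A count of 4 of 4 called is therefore near the background and says nothing particular of these genes. Likewise the KO values lay wholly under the WT values in all 4 genes and in 55% of the table. The median log2 fold change was -1.53 over the 4 genes and -1.43 over the 233 lower genes. Cidec lay further out: its log2 fold change was the 4th lowest of 389, and those of Plin2, Hilpda and Fitm2 held ranks 81, 132 and 188. By p-value Cidec stood 1st in the authors' deposited table, Plin2 27th, Fitm2 192nd and Hilpda 218th.

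**Figure D2:**
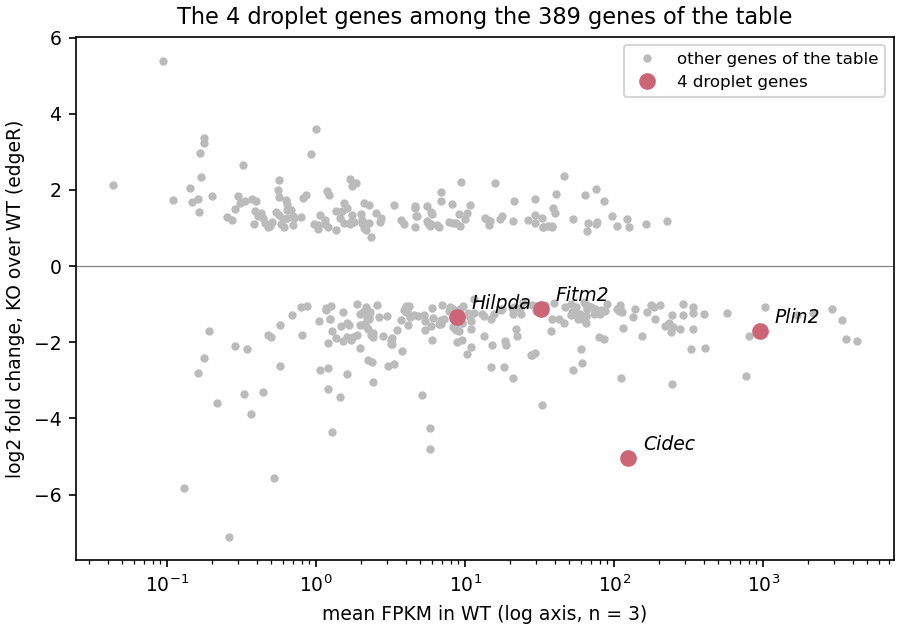
Log2 fold change, KO over WT (edgeR), against the mean FPKM in WT (log axis) for the 389 genes of the table, each point a gene. Cidec lies at -5.04, apart from genes of a similar WT level, while Plin2 (-1.71), Fitm2 (-1.13) and Hilpda (-1.34) lie inside the band of lower genes. The empty band around 0 follows from the authors' selection.

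Of the 4 edgeR calls, only that for Cidec did not depend on how many genes the p-values were adjusted for. The authors' FDR and p-values together imply that 16198 genes had been tested. Adjusted over that number, Cidec kept an edgeR adjusted p of 0.00048, as 1 of 5 genes (1.29% of the table, all lower in KO). Plin2 (0.192), Fitm2 (0.374) and Hilpda (0.519) did not pass under that edgeR adjustment, which treats every gene without a row as unchanged. The FDR that the authors deposited, from a test not named in the sources used here, was 3.77e-10 for Plin2, 0.00144 for Fitm2 and 0.00293 for Hilpda. These genes thus passed in the authors' own test, but a low FDR was a condition of the selection. Scaling mattered as well. Factors that take most genes of the table as unchanged raised the median gene by 0.58 (TMM) or 0.66 (relative log expression) on the log2 scale. With TMM, Cidec was at -4.45 and Plin2 at -1.12, and both passed. Fitm2 (-0.57, edgeR adjusted p = 0.132) and Hilpda (-0.73, edgeR adjusted p = 0.0856) did not, where 24.2% of the table was called lower. With relative log expression factors 20.6% was called lower, and again Cidec and Plin2 passed and the other 2 did not. All 4 genes stayed lower in KO in all 15 alternatives run, although the adjustment over 16198 genes cannot move a fold change. Since the authors had selected the genes on this same contrast, a kept direction says little of these genes.

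**Figure D3:**
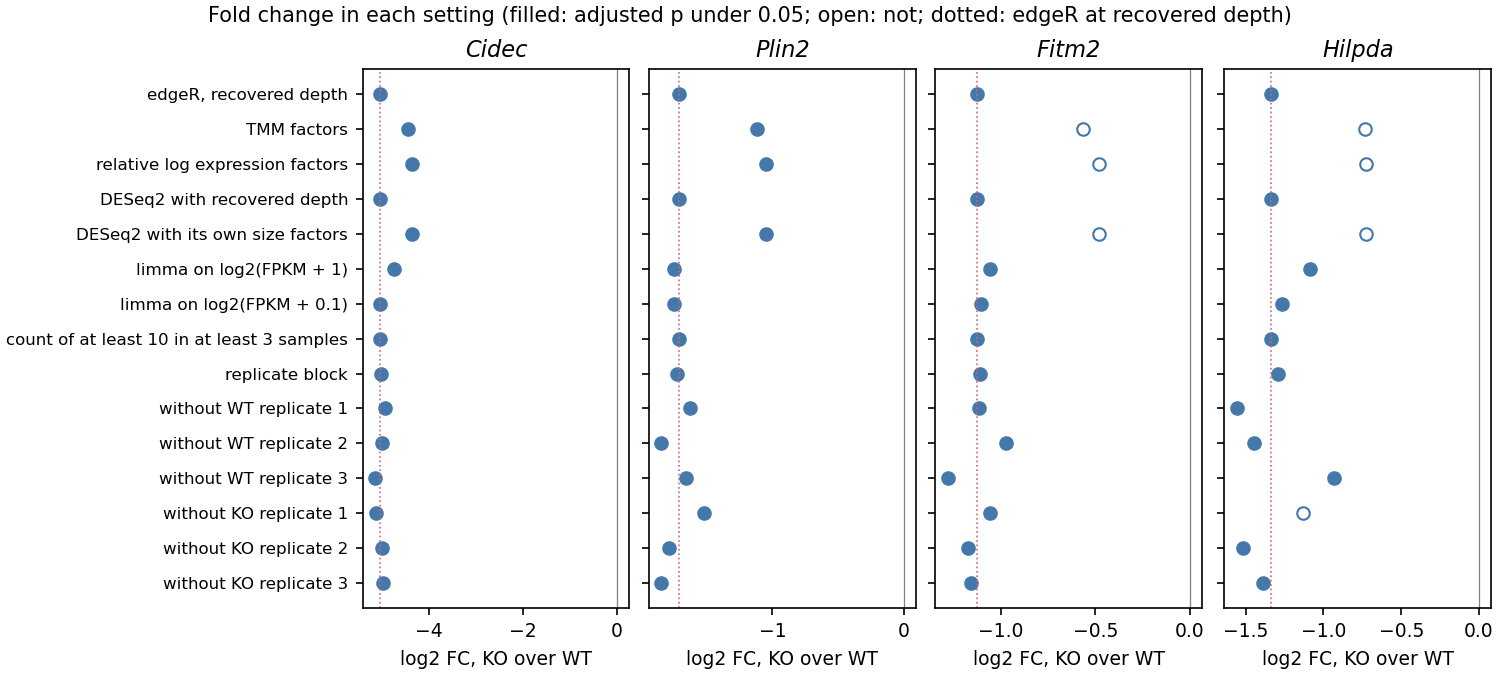
Log2 fold change of each of the 4 genes (KO over WT) in the edgeR fit at recovered depth and in 14 alternatives, filled where the adjusted p is under 0.05. Every point is below 0. The open points are Fitm2 and Hilpda under the 3 scalings that take most listed genes as unchanged, and Hilpda without KO replicate 1 (-1.13).

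The 4 genes did not vary together over the WT libraries. WT replicate 3 had the lowest WT value of Cidec and of Fitm2 and the highest of Hilpda. Against the mean of WT replicates 1 and 2, on the log2(FPKM + 1) scale, it was at -0.38 for Cidec, -0.50 for Fitm2, 0.19 for Plin2 and 0.90 for Hilpda. In KO replicate 1, Plin2, Fitm2 and Hilpda had their lowest value and Cidec its highest. That order of Cidec rests on 99, 88 and 83 reads in KO replicates 1, 2 and 3. Their 95% Poisson intervals overlap (80.5 to 121, 70.6 to 108 and 66.1 to 103 reads). The coefficient of variation over WT libraries was 16.3% for Cidec, 16.7% for Plin2 and 21.5% for Fitm2, against a median of 39.4% over the table. For Hilpda it was 43.5%. Over KO libraries it was 17.4% for Cidec, 24.8% for Plin2, 9.12% for Fitm2 and 27.6% for Hilpda, with a median of 18.2%.

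WT replicate 3 stood apart in the table as a whole: listed genes took 5.45% of its reads, against 8.75% and 8.82% in WT replicates 1 and 2 and 3.73% to 3.77% in KO libraries. Depth itself ranged only from 20350000 to 24160000 reads. Without WT replicate 3 all 4 genes still passed, but so did most of the table: 372 genes were called, 216 of them lower in KO. That all 4 passed in this fit therefore says nothing particular of these genes. Cidec was at -5.16, Plin2 at -1.66 and Fitm2 at -1.28 in log2 fold change, and Hilpda at -0.93 with an SE of 0.30 (edgeR adjusted p = 0.0191). Hilpda is also expressed in macrophages, and macrophage markers too were highest in WT replicate 3. The 6 of 18 markers with a row (Mmp12, Gpnmb, Lgals3, Cd14, Itgam and Itgax) summed to 67.1, 30.8 and 168 FPKM in WT replicates 1, 2 and 3. In KO replicates 1, 2 and 3 the sum was 28.9, 23.5 and 20.7 FPKM. Elsewhere the order differed: Hilpda was higher in WT replicate 2 than in WT replicate 1 while the marker sum was lower, and KO replicate 1 had the lowest Hilpda but the highest KO sum. All 6 markers were called lower in KO, where 59.9% of the table was called lower and every row had passed the authors' selection. The macrophage markers without a row were not analysed here. Without WT replicate 3 the calls of Cd14 and Lgals3 were lost, at edgeR adjusted p-values of 0.156 and 0.0642. Of 10 neutrophil markers 1 had a row (Lcn2, 28.8 to 120 FPKM in WT libraries and 8.02 to 12.4 in KO libraries), and of 14 stellate cell markers 1 (Timp1, 0.33 to 3.55 and 0.05 to 0.26 FPKM). None of 15 adipocyte, 8 Kupffer cell, 11 endothelial, 10 cholangiocyte or 13 lymphocyte markers had a row, so their levels were not analysed here. In bulk liver, fewer cells of a type and less RNA per cell cannot be told apart, and the part of these cells in the Hilpda values was not tested.

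Ratios within a library, which no library scaling can move, showed how the genes changed relative to each other. Plin2 exceeded Cidec 7.34, 6.04 and 9.91 times in WT replicates 1, 2 and 3 (ratio of FPKM). In KO replicates 1, 2 and 3 it did so 46.3, 95.1 and 102 times. Cidec exceeded Fitm2 4.35, 3.26 and 4.13 times in WT replicates 1, 2 and 3 but stood at 0.334, 0.212 and 0.214 of its level in KO replicates 1, 2 and 3. The balance between these 2 genes was thus inverted in every KO library. Cidec exceeded Hilpda 24.3, 17.0 and 7.79 times in WT replicates 1, 2 and 3. It was 1.80, 0.764 and 0.879 times its level in KO replicates 1, 2 and 3. None of these ratios overlapped between genotypes. Each of them holds Cidec, whose lowest WT value was 23.4 times its highest KO value, so the separation largely restates Cidec's own difference. How many other gene pairs of the table separate in this way was not analysed.

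Each of the 6 pairs was tested on the difference of log2(FPKM + 1) within a library, KO minus WT, with a two-sided exact permutation test, which with 3 against 3 cannot go below 0.1. Cidec differed by -2.99 relative to Plin2, by -3.68 relative to Fitm2 and by -3.66 relative to Hilpda on this scale. Each of these 3 tests gave the smallest p possible (exact permutation p = 0.1, adjusted over 6 pairs 0.15), so no pair could pass. Plin2 relative to Hilpda differed by -0.66 (exact permutation p = 0.1, adjusted 0.15), but its separation did not hold without the added 1. As plain FPKM ratios, WT replicate 3 (77.3) lay below KO replicates 1 (83.5) and 3 (89.8). With 0.1 added instead of 1, the difference was -0.48 (exact permutation test, adjusted p = 0.36). Plin2 relative to Fitm2 differed by -0.69 with overlap between genotypes (exact permutation p = 0.2, adjusted 0.24). Fitm2 relative to Hilpda was 1.80 ± 0.81 for WT and 1.82 ± 0.20 for KO (SD, n = 3 each), so that they differed by 0.02 (exact permutation p = 1). That last ratio was 2.30, 2.23 and 0.87 in WT replicates 1, 2 and 3, and without WT replicate 3 its difference was -0.44.

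**Figure D4:**
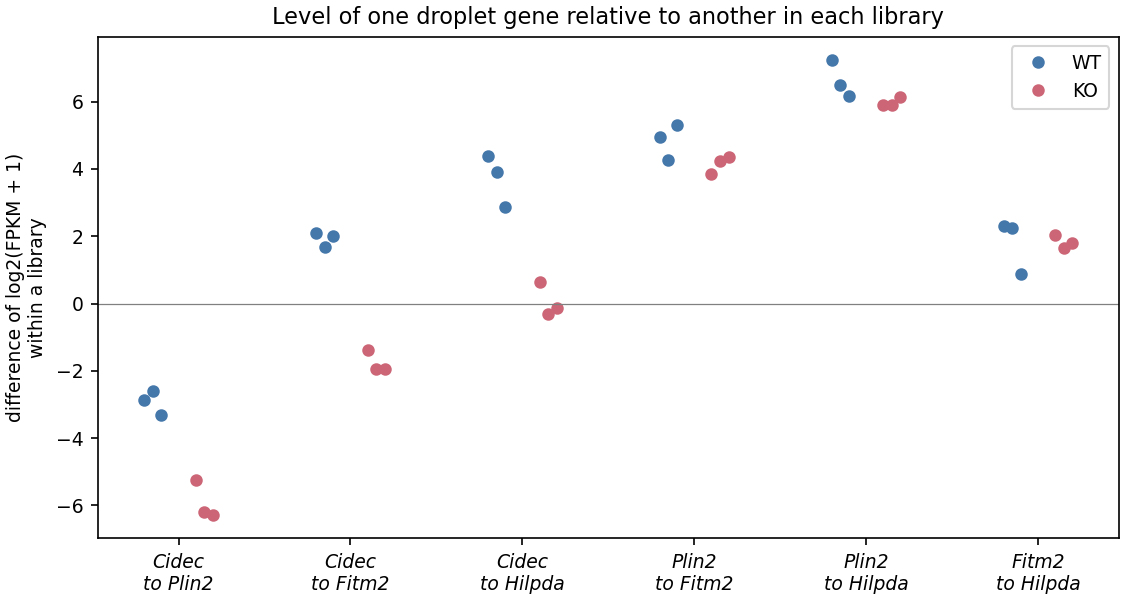
Difference of log2(FPKM + 1) between the genes of each pair within a library, WT and KO side by side (replicates 1 to 3 from left to right, n = 3 each). The 3 pairs with Cidec separate widely by genotype, Cidec to Fitm2 changing sign, whereas Fitm2 to Hilpda lies between 0.87 and 2.30 in both genotypes.

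The counts and FPKM of a gene together also carry the transcript length by which its reads were divided. For Fitm2, with a single annotated transcript of 3967 bases (GENCODE M21), the implied length was 3966 to 3968 bases in the 6 libraries. For Hilpda it was 981 to 983 bases, the length of the longer of its 2 transcripts (982 and 658 bases). For Cidec it was 1085, 1129 and 1105 bases in WT replicates 1, 2 and 3. It was 1079, 1201 and 1160 bases in KO replicates 1, 2 and 3. The genotypes overlapped, with means of 1106 ± 21.9 and 1147 ± 62.3 bases (SD, n = 3 each, two-sided exact permutation p = 0.4). No annotated Cidec transcript has that length (1720, 1703, 785 and 376 bases), so the value is a mean over transcripts to which the authors' software assigned reads. For Plin2 it was 1851, 1840 and 1847 bases in WT replicates 1, 2 and 3. In KO replicates 1, 2 and 3 it was 1876, 1869 and 1867 bases. The groups did not overlap, and KO was longer by 24.8 bases (two-sided exact permutation p = 0.1, the smallest possible). These values approach the 1888 bases of the full-length Plin2 transcript, the other 7 having 551 to 996 bases. Of 207 listed genes with several transcripts and at least 1 FPKM in each library, 19.3% likewise did not overlap in implied length.

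**Figure D5:**
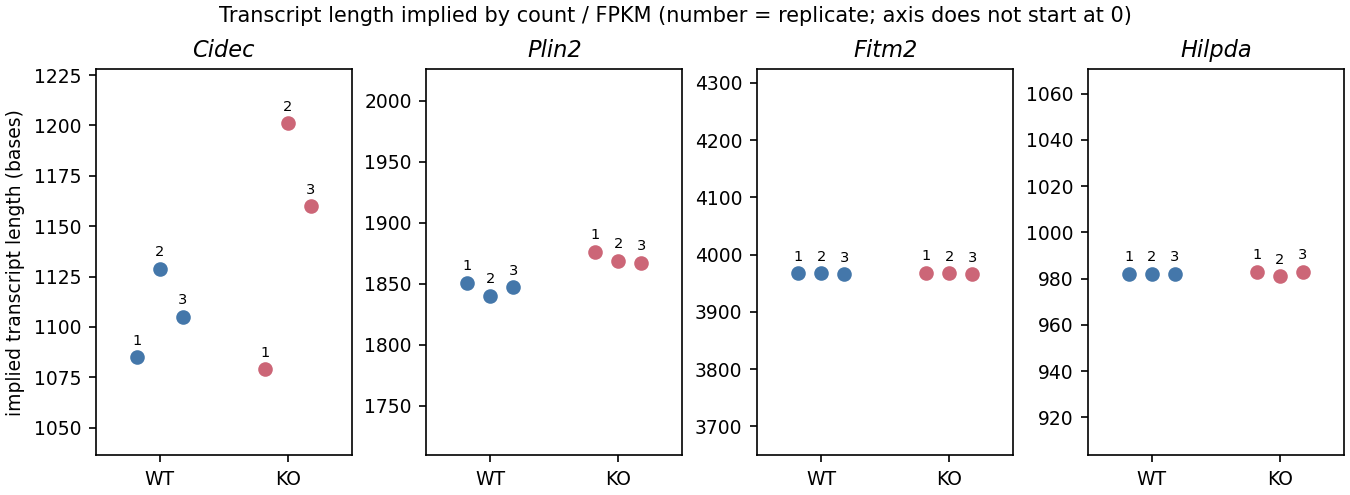
Transcript length in bases implied by count, FPKM and depth, per library (points numbered by replicate, n = 3 per genotype, axes spanning the same relative range and not starting at 0). Fitm2 and Hilpda lie flat, Plin2 is slightly longer in KO (1867 to 1876 against 1840 to 1851 bases), and Cidec varies most, with overlap between genotypes.

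Few other genes of the droplet surface had a row. Of 16 further coat and growth genes, among them the other perilipins, Cidea, Cideb, Fitm1 and the seipin gene Bscl2, 1 had a row and was lower: Hsd17b11, which codes for a droplet-bound short-chain dehydrogenase. It stood at 229, 200 and 69.6 FPKM in WT replicates 1, 2 and 3. The KO replicates 1, 2 and 3 stood at 69.8, 76.2 and 71.6 FPKM. Its difference lay in WT replicates 1 and 2, since WT replicate 3 was below every KO library. It passed all the same (edgeR adjusted p = 0.0200), at a log2 fold change of -1.20 with an SE of 0.42, and of -1.56 without WT replicate 3. The genes without a row either missed the authors' selection or were not among those they tested, and their levels were not analysed here. Seen from the deposited gene annotation instead, 6 of the 389 genes carried the term lipid droplet: Cidec, Plin2, Hilpda, Hsd17b11, Pnpla2 and Rsad2. All 6 were lower, with a median log2 fold change of -1.57, where 59.9% of the table was called lower. The median over the 233 lower genes of the table was -1.43. Fitm2 did not carry that term. Rsad2, an interferon-induced gene, passed through WT replicate 3 (7.39 FPKM against 1.71 and 2.10 in WT replicates 1 and 2), and without that library its edgeR adjusted p was 0.163 at a log2 fold change of -0.46.

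On the lipolysis side, 2 of 12 genes had a row and both were lower, where 59.9% of the table was called lower. Pnpla2, which codes for ATGL, the lipase that HILPDA inhibits, had WT values of 159, 203 and 96.8 FPKM and KO values of 36.8, 47.5 and 41.8 FPKM in replicates 1, 2 and 3. Its log2 fold change of -1.82 with an SE of 0.34 (edgeR adjusted p = 0.00356) was close in size to that of Plin2. Mgll, the monoglyceride lipase gene, was at -1.17 ± 0.39 (SE, edgeR adjusted p = 0.0175), with WT replicate 3 at 41.1 FPKM beside KO libraries at 37.0 to 40.0. Of 16 genes of triglyceride synthesis, 2 had a row and both were lower, beside that same 59.9%. Gpat4, which codes for a glycerol-3-phosphate acyltransferase, was at -1.07 ± 0.30 (SE, edgeR adjusted p = 0.0111) and Lpin2, a phosphatidate phosphatase gene, at -1.01 ± 0.32 (SE, edgeR adjusted p = 0.0150).

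Among 19 further PPARG targets, 2 had a row and both were lower: Cd36, the fatty acid translocase gene (log2 fold change -1.13), and Slc27a1, a fatty acid transport gene (-1.56). Of 39 PPARA targets, 19 had a row and all 19 were lower, with a median of -1.60. Those furthest down were Ehhadh (-2.90), Acot1 (-2.73, whose reads may be shared with Acot2) and Cpt1b (-2.53), and in each WT replicate 3 lay near the KO libraries. Ehhadh was at 1209, 907 and 169 FPKM in WT replicates 1, 2 and 3, against 86.1 to 117 FPKM in KO libraries. Cidec and Plin2 had no such intermediate WT library. Nor had the PPARA target Acot2, at 19.9 to 24.2 FPKM in WT libraries and 4.77 to 7.94 FPKM in KO libraries. Among hypoxia targets, Slc2a1, the gene of the glucose transporter GLUT1 (-1.39), and Ldha, that of lactate dehydrogenase A (-1.28), were lower. Slc2a1 had its highest value in WT replicate 3 (8.79 FPKM), as Hilpda did, whereas Ldha had its lowest WT value there (992 FPKM). These counts stand beside a background of 59.9% of the table called lower, and no test of the lists was made.

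Likeness of profile was measured as the root mean square difference between mean-centred log2(FPKM + 1) values over the 6 libraries, so that 0 means the same pattern on that scale. The added 1 compresses differences of genes near 1 FPKM, so a small distance is not an equal fold. Nearest to Cidec were Mt2 (1.03), Il1rn (1.10) and Cgref1 (1.26), all at some distance, against a median of 2.06 over the table. Plin2 had closer neighbours: Acot2 (0.15), Epha2 (0.19) and Kctd17 (0.23), with a median of 0.72. Nearest to Fitm2 (log2 fold change -1.13 in edgeR) were Slc25a34 (0.09), Gfra1 (0.09) and Por (0.09), whose log2 fold changes were -1.94, -0.94 and -1.07. Slc25a34 had a mean of only 3.16 FPKM in WT and 0.823 FPKM in KO. Nearest to Hilpda were Id1 (0.13), Hes1 (0.14) and Hip1r (0.18). The median distance over the table was 0.57 from Fitm2 and 0.74 from Hilpda. None of the 4 droplet genes was among the 3 nearest of another. Plin2, Fitm2 and Hilpda were 0.47 to 0.48 apart, and Cidec was 1.55 from Plin2, 1.85 from Fitm2 and 1.91 from Hilpda.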

How the data were processed

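RNA from 6 liver samples (3 KO, 3 WT) was sequenced from NEBNext Ultra libraries, per the labels' protocols. The submitters' processing notes name fastp 0.18.0, HISAT2, StringTie 1.3.1 and RSEM. For genome build, annotation, strand and test the sources used here give nothing. Deposited by the authors were counts and FPKM per gene and sample, group mean FPKM, a log2 fold change, p-values and FDR, per the file headers, all for 389 selected genes.

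Depth was recovered per library as the median of count over FPKM and length, over 38 to 51 genes with 1 annotated transcript and no fewer than 50 counts and 1 FPKM. Among 33 genes with 1 transcript and at least 1 FPKM in every library, implied and annotated length differed by a median of 0.018%. Counts were tested with edgeR 4.0.16 (R 4.3.3, quasi-likelihood test, no filter, recovered depth as library size), with Benjamini-Hochberg adjustment over 389 genes. An SE is the log2 fold change over the root of the F statistic. Alternatives used DESeq2 1.42.0, limma 3.58.1, other scalings, a filter, a replicate block and left-out libraries. On counts simulated for the 389 genes of this comparison, edgeR called 45 of 100 genes with an absolute log2 change of 1, 97 of 100 with one of 2 and 5 of 189 unchanged genes. The real genes had been selected on this same contrast, unlike the simulated ones, so these rates may not hold for the reported adjusted p-values. Counting errors cover sampling of reads only.

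The 4 genes and all gene lists were chosen with earlier results of these data known. Named were the 4 genes, every listed gene of the coat, lipolysis and triglyceride synthesis lists, up to 3 with the largest change of the PPARG, PPARA and hypoxia lists, and the 3 nearest profiles per gene. The implied lengths and the annotation term were added after the data were seen. The labels give no batch. A result of the hypoxia list is not reported here.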

Additional observations from a re-analysis of the deposited data

How the results depend on the processing

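All 4 genes stayed lower in KO in every alternative run, which says little of genes selected on this same contrast. The call for Cidec changed in no alternative, and that for Plin2 only in the adjustment over 16198 genes, which cannot move a fold change. There Plin2 did not pass (log2 fold change -1.71, edgeR adjusted p = 0.192), nor did Fitm2 (-1.13, 0.374) or Hilpda (-1.34, 0.519). Fitm2 did not pass with TMM (-0.57), relative log expression (-0.48) or DESeq2's own factors (-0.48), and Hilpda did not with TMM (-0.73), relative log expression (-0.73) or DESeq2's own factors (-0.73). These factors rest on the assumption that most listed genes are unchanged. In these 3 settings 2 of the 4 genes were called, and 1 was called in the adjustment over 16198 genes. Genes called in all went from 388 (155 higher, 233 lower) to 250, 236 and 239, with 94, 80 and 83 lower, and to 5 (0 higher, 5 lower) over 16198 genes. Higher genes made up 39.9% of calls at recovered depth, 62.4% with TMM, 66.1% with relative log expression and 65.3% with DESeq2's own factors.

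Leaving out 1 library gave log2 fold changes of -5.16 to -4.94 for Cidec, -1.85 to -1.52 for Plin2, -1.28 to -0.98 for Fitm2 and -1.56 to -0.93 for Hilpda, with 3 to 4 of the 4 genes called. Genes called went from 278 to 372, with 99 (without KO replicate 2) to 156 higher and 176 to 219 lower. The ratio of Fitm2 to Hilpda, near 0 in its difference, turned to -0.015 with counts at recovered depth and ranged from -0.44 to 0.27 with 1 library left out. It was -0.44 without WT replicate 3 and -0.08 without KO replicate 1, and the cause was not tested. The other pairs kept their direction. Over libraries left out, the Plin2 implied length differed by 21.9 to 27.3 bases and that of Cidec by 13.0 to 74.2.

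The labels do not say whether the replicate numbers pair the samples. Deviations of same-numbered KO and WT samples correlated at 0.07, 0.11 and -0.02 across genes. Those of differently numbered samples correlated at -0.19 to 0.10. With so few libraries of selected genes, these values cannot settle whether samples were paired. With a replicate block 382 genes were called, and log2 fold changes were -5.03 for Cidec, -1.73 for Plin2, -1.11 for Fitm2 and -1.29 for Hilpda. Counting error of Hilpda ran from 6.15% to 14.1% per library, below its coefficient of variation over replicates (43.5% in WT, 27.6% in KO).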
